A study of Mus musculus with 32 samples.

Results

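The genes described here encode the proteins of the cytosolic ribosome. They were taken by symbol alone, as Rpl or Rps followed by a number and, where present, the letters a, x, y or l, which gave 78 of the 24421 genes in the deposited count table. Of these, 47 belong to the large subunit and 31 to the small subunit. The study compared albino B6(CG)Tyr(c-2J)/J mice, which carry an allele of the tyrosinase gene on a C57BL/6 background, with pigmented C57BL/6 mice. For each strain 4 tissues were sequenced as total RNA in 4 labelled replicates: the extraocular muscles that move the eye (EOM), the limb muscle tibialis anterior (TA), and samples labelled for the oculomotor (CN3) and abducens (CN6) motor neurons, giving 32 libraries. No treatment, age or pooling of animals is stated in the labels, and nothing there says that replicates came from separate animals, so p-values measure only the spread between these samples.

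Every cytosolic ribosome carries a large subunit, which joins amino acids, and a small subunit, which reads the messenger RNA. Their proteins are needed in nearly equal numbers, and most ribosomal protein messengers begin with a pyrimidine tract through which growth signals set their translation. A few ribosomal proteins have paralogues that replace them in particular tissues. Rpl3l, the striated-muscle paralogue of Rpl3, is the best known in muscle, where it takes the place of Rpl3 near the peptidyl transferase centre.

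The libraries were checked against marker genes before any comparison. Fast-fibre genes such as Ckm and Acta1 outweighed neuron genes such as Snap25 in the muscle samples of C57BL/6, and the reverse held in the brainstem samples. In 8 of the 16 albino libraries the markers went against the label. Replicates 1 and 2 labelled EOM or TA in albino mice were high in neuron genes, and replicates 3 and 4 with the CN3 or CN6 label were high in fast-fibre genes. No library was moved to another group. Strain comparisons therefore used the 24 libraries that match their label, 4 C57BL/6 against 2 albino in each tissue, and the 8 others are given as single values. Motor neuron markers were scarce in the CN3 samples of C57BL/6: Chat, the acetylcholine-synthesising enzyme, averaged 0.433 counts per 1000000 counts of the library (CPM) there and 15.7 CPM in CN6. Library totals ran from 18544334 to 44254021 counts.

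Some of the sequences at these genes' starts carry the features for which the family is known. The lines that follow give 25 bases before and 25 bases after the RefSeq transcription start in GRCm38.p6, 5′ to 3′ on the gene's strand. They were chosen to show a pyrimidine tract (CTTTCC in capitals), the core bound by ETS factors (CTTCCG in capitals) and, in Rpl3l, a CAGCTG box of the kind bound by myogenic factors.
Rpl4, chr9:64173362-64173411, plus strand: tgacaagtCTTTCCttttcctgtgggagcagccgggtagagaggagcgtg
Rpl28, chr7:4792940-4792989, plus strand: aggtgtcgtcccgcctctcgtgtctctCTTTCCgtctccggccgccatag
Rpl38, chr11:114668555-114668604, plus strand: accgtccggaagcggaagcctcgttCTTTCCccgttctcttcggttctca
Rps10, chr17:27635220-27635269, minus strand: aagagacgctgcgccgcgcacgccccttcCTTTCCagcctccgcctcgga
Rpl36a, chrX:134585629-134585678, plus strand: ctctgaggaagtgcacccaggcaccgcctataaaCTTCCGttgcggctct
Rpl36al, chr12:69184043-69184092, minus strand: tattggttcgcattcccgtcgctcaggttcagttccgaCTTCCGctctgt
Rpl3l, chr17:24727801-24727850, plus strand: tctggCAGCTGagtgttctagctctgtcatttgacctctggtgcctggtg

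RefSeq windows of 300 bases, 250 before to 50 after the start, were found for 58 of the 78 genes (70 windows). CTTTCC or its complement GGAAAG lay in 50% of them, against 26.6% of all 32851 windows. CTTCCG or its complement CGGAAG lay in 61.4%, against 16.9% of all windows. CAGCTG, which reads the same on both strands, lay in 5.71%, against 16.3%. Within 25 bases of the start and on the gene's strand, CTTTCC was found in 15.7% of the family's windows and in 2.46% of all. CTTTCC and CTTCCG were searched separately and may share an end base. These are matches of letters only. In the lines shown, CTTTCC lies before the RefSeq start in Rpl4, begins at it in Rpl38 and lies after it in Rpl28 and Rps10. The Rpl4 match is thus outside the messenger as RefSeq places its start. The Rpl3l window shown holds CAGCTG and neither of the other motifs, while the windows of Rpl36a and Rpl36al both hold CTTCCG.

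Together the 78 genes took a small share of each library, which was largest in eye muscle. Their summed share was 1.45 to 1.54% in the 4 C57BL/6 EOM libraries and 1.21 to 1.26% in the 4 TA libraries, ranges that did not overlap. In the brainstem the share was 0.979 to 1.16% in CN3 and 0.940 to 0.975% in CN6. Albino EOM stood higher, at 2.23% and 1.85%, above every C57BL/6 EOM library. Albino TA, at 1.41% and 1.33%, also lay above the C57BL/6 TA range, by a smaller margin. Albino CN3 (1.10% and 1.02%) fell inside the C57BL/6 CN3 range, and albino CN6 (1.06% and 1.04%) lay just above that of C57BL/6 CN6. The libraries labelled albino CN3 3 and 4, in which muscle markers were high, had 2.17% and 2.07%. Those labelled albino CN6 3 and 4 had 1.60% and 1.10%, and in the last of these Rn45s, the ribosomal RNA precursor, took 10.6% of the counts.

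**Figure D1:**
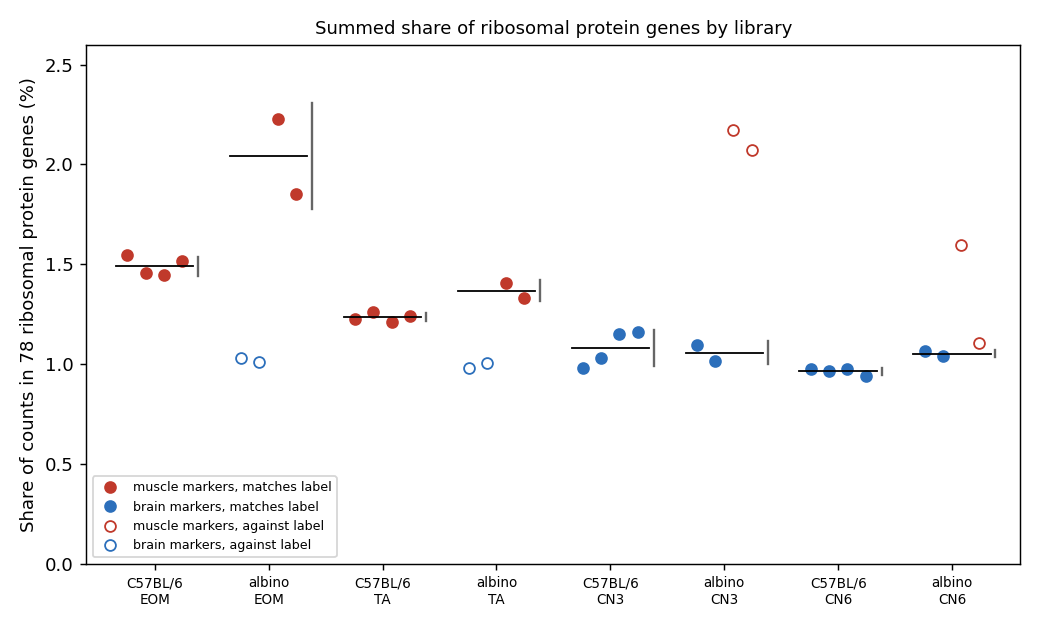
Share of counts (y axis, percent) in the 78 ribosomal protein genes, per library, by labelled group (x axis). Filled points match their label, open points do not, and lines and grey bars give the mean and SD of the filled points. Albino EOM (2.23% and 1.85%) lies above all 4 C57BL/6 EOM libraries (1.45 to 1.54%).

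Per kilobase of transcript, the most abundant member was Rps15 in C57BL/6 EOM, at 574 CPM per kilobase, and Rps15 also led in CN3 (495) and CN6 (402). Rpl4, at 526 CPM per kilobase, led in TA. Rpl3 ranked 4 of 78 in CN3 and 2 in CN6, but 56 in EOM and 70 in TA. Rpl3l ranked 17 in EOM and 4 in TA. These ranks depend on the transcript length taken for each gene, and other lengths could change the order. The lengths used were 5179 bases for Rps15a, 3706 for Rps20 and 1613 for Rps24, against 500 for Rps15. Reads shared with pseudogene copies may also bear on the ranks. The GENCODE annotation holds 24 pseudogene symbols each for Rpl31 and Rps12.

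A few members were at or near 0 in every library. Rpl10l, a testis paralogue, and Rpl26, a core protein of the large subunit that every cell uses, were listed at 0 in all 32 libraries. Rpl30, Rpl34 and Rps27, also core proteins, did not exceed 0.602, 1.11 and 1.09 CPM. The GENCODE annotation holds 6 pseudogene symbols for Rpl26, 9 for Rpl30, 2 for Rpl34 and 1 for Rps27. How reads shared with such copies were counted is not given in the sources used here, so these values are not read as the genes' expression. Rpl39l, a germ-cell paralogue, reached at most 1.29 CPM. Counts of tested members below leave out those that did not pass edgeR's filter on low counts, which were 3 to 5 of the 78 depending on the comparison.

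Rpl3l was abundant in muscle and near 0 in brainstem, and its parent Rpl3 followed the reverse order. Rpl3l (ENSMUSG00000002500.15; chromosome 17, 24727820 to 24736143, plus strand) had 436, 440, 408 and 423 CPM in the 4 C57BL/6 EOM libraries and 610, 599, 563 and 569 CPM in TA. All TA libraries lay above all EOM libraries. In the brainstem it was at 0.429 to 0.735 CPM in CN3 and 0.552 to 0.931 CPM in CN6. Rpl3 (ENSMUSG00000060036.14; chromosome 15, 80077791 to 80091868, minus strand) was at 195, 175, 187 and 185 CPM in EOM and at 41.9, 38.4, 31.7 and 39.7 CPM in TA. In CN3 it reached 500, 496, 554 and 574 CPM, and in CN6 479, 503, 458 and 457 CPM. The CN3 and CN6 ranges overlapped, and Rpl3 did not pass the test between them (log2 difference 0.13 ± 0.07 SE, adjusted p = 0.243).

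Per transcript length, Rpl3l made up 69.3% ± 1.33 (SD, n = 4) of the pair in C57BL/6 EOM and 93.8% ± 0.554 (SD, n = 4) in TA, while it stayed at or below 0.199% in every brainstem library of that strain. Scaled by library totals alone, the sum of the pair varied less than either gene. It was 448 ± 11.2 CPM per kilobase in EOM and 454 ± 19.0 in TA (SD, n = 4 each), and the ranges, 435 to 462 and 433 to 475, overlapped. In CN3 the sum was 394 ± 29.1 and in CN6 351 ± 15.9 CPM per kilobase (SD, n = 4 each). How these sums compare between tissues depends on the scaling, and the factors used in the tests below were not applied to them. The median member over the same libraries was at 208, 167, 152 and 137 CPM per kilobase in EOM, TA, CN3 and CN6.

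**Figure D2:**
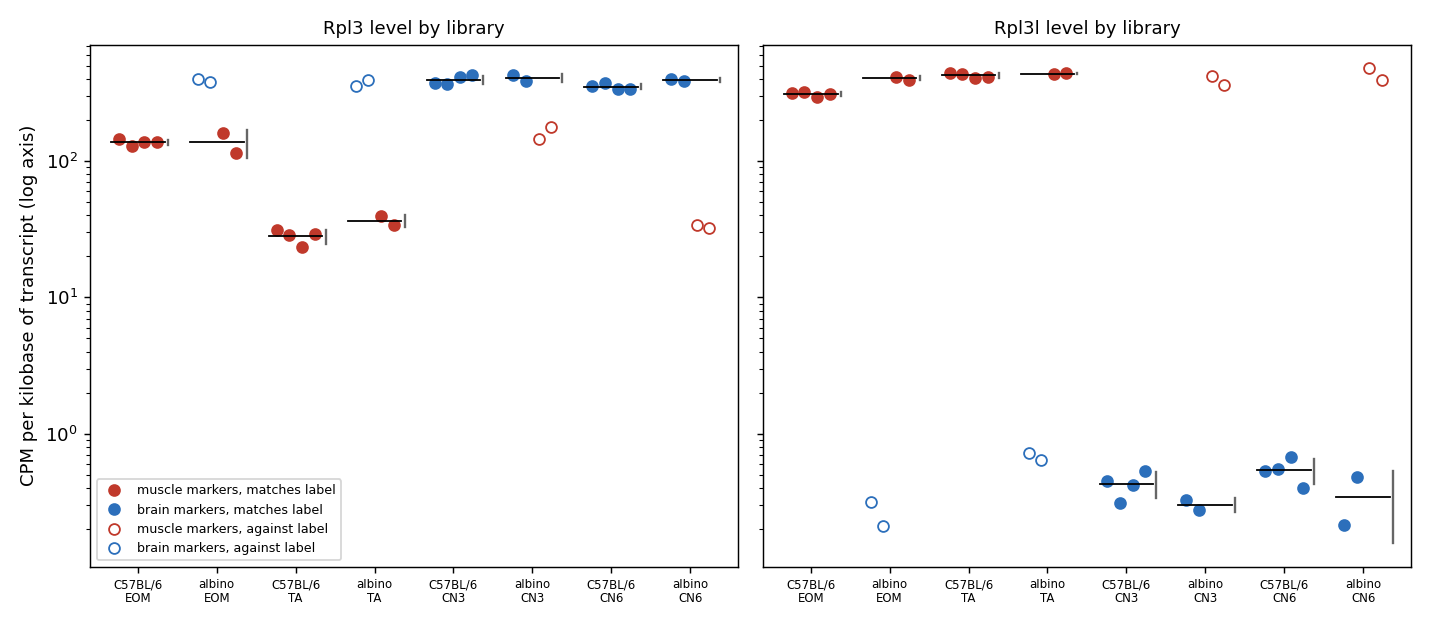
Level of Rpl3 (left) and Rpl3l (right) in CPM per kilobase of transcript on a log axis, per library, by labelled group. Symbols are as in the plot of summed shares. Rpl3l lies between 297 and 443 in the C57BL/6 muscle libraries and at or below 0.677 in those of the brainstem, while Rpl3 is lowest in TA.

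In albino mice too, Rpl3l held a smaller share of the pair in EOM than in TA. Rpl3l made up 72.0% and 77.5% of the pair in the matching albino EOM libraries, both above the highest C57BL/6 EOM library (71.2%). In albino TA it was 91.7% and 92.9%, both below the lowest C57BL/6 TA library (93.4%). In the pair of libraries labelled albino CN3 3 and 4 the share was 74.4% and 67.2%, and with the label albino CN6 3 and 4 it was 93.4% and 92.5%. Replicates 1 and 2 labelled albino EOM gave 0.0791% and 0.0555%, and those labelled TA 0.203% and 0.162%, at the level of brainstem.

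Muscle and brainstem differed in nearly every member. Between the mean of EOM and TA and the mean of CN3 and CN6 in C57BL/6, 70 of 74 tested members were higher in muscle and 2 were lower at an adjusted p under 0.05, by edgeR's quasi-likelihood test with Benjamini-Hochberg adjustment over all genes tested. Among all 16670 genes tested, 41.4% were called higher and 47.4% lower. The members' median log2 difference was 1.07, and that of all genes was -0.13. The test scales libraries by TMM factors, which assume that most genes do not change; when they were scaled by their deposited totals alone, 54 members were higher and 11 lower, against 27.2% and 63.5% of all genes. The members' median was then 0.38 and that of all genes -0.81. With TMM factors and offsets for GC content and transcript length, 63 members were higher and 4 lower, against 50.4% and 38.8% of all genes. The medians were then 0.65 for the members and 0.27 for all genes, closer together than without the offsets.

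The largest difference belonged to Rpl3l, with a log2 difference of 10.25 ± 0.08 (SE, adjusted p = 1.4e-22). Rps27l, a p53-inducible paralogue of Rps27, followed at 3.10 ± 0.07 (adjusted p = 1.46e-17). Its levels were 46.3, 39.5, 44.4 and 47.9 CPM in EOM and 66.4, 74.1, 70.4 and 67.0 CPM in TA, against 8.93 to 11.2 CPM in CN3 and 9.23 to 12.9 CPM in CN6. The order of the tissues was thus the same in every library: TA above EOM above brainstem. Rps2, which lines the messenger's path into the small subunit, was 2.51 ± 0.17 higher, and Rpl36, a protein of the large subunit, 1.99 ± 0.10 higher on the log2 scale. Rps2 also varied among replicates, from 38.1 to 89.1 CPM in CN3 and from 167 to 281 CPM in EOM.

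Only Rpl3 and Rps4l were called lower in muscle, by 1.89 ± 0.05 (adjusted p = 2.61e-16) and 1.88 ± 0.11 (adjusted p = 9.46e-12) on the log2 scale in the test with TMM factors. Rps4l is an intronless paralogue of Rps4x, the small-subunit protein encoded on the X chromosome. It was at 5.81, 4.91, 4.44 and 4.91 CPM in EOM, 1.36, 1.07, 1.04 and 1.22 CPM in TA, 12.5 to 17.8 CPM in CN3 and 11.9 to 16.1 CPM in CN6. Rps4l overlaps the gene Tmtc1 in the annotation, and the strand setting of the authors' counting is not given in the sources used here, so reads of both cannot be told apart. It made up at most 6.63% of the sum of Rps4l and Rps4x per transcript length in any C57BL/6 library. Rpl17 and Rps27 were the tested members that passed in neither direction (log2 differences 0.11, adjusted p = 0.32, and 0.20, adjusted p = 0.661).

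Other parts of the translation machinery were also mostly higher in muscle. The 10 ribosomal proteins outside the symbol rule, such as the stalk protein Rplp0 (698 against 152 CPM), were higher in 10 of 10. Mitochondrial ribosomal proteins, which serve the separate ribosome of mitochondria, were higher in 76 of 77, with a median log2 difference of 1.34; Mrpl33 stood at 76.5 against 15.8 CPM. Initiation factors were higher in 25 and lower in 1 of 28, among them Eif3e at 197 against 64.8 CPM. Elongation factors were higher in 6 and lower in 2 of 8, with Eif5a2 lower at 5.37 against 197 CPM. Ribosome biogenesis genes were higher in 22 and lower in 4 of 33, and growth-control genes higher in 10 and lower in 4 of 16. With deposited totals alone the balance of these 2 lists turned, to 7 higher and 22 lower biogenesis genes and 4 higher and 10 lower growth-control genes. These shares (21.2% and 66.7%, and 25% and 62.5%) were near those of all genes, 27.2% higher and 63.5% lower. In bulk samples, fewer cells of a type and less RNA per cell cannot be told apart.

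Within C57BL/6 muscle, Rpl3 and Rps4l were higher in EOM, and Rpl3l, Rps27l and Rpl36al were higher in TA, whichever scaling was used; the direction of most other members turned with the scaling. With TMM factors, 2 of 74 tested members were higher in EOM and 64 lower (41.3% and 32.8% of all genes), with a median log2 difference of -0.40 against 0.16 for all genes. With deposited totals alone, 55 were higher and 3 lower (70.9% and 9.41% of all genes), the members' median was 0.33 and that of all genes 0.89. Under both scalings the members' median lay below that of all genes. In plain CPM, 54 members had EOM ranges wholly above those of TA (64.3% of all genes did) and 4 wholly below (8.84%).

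Rpl3 was the member raised most in EOM, by 1.56 ± 0.08 on the log2 scale (adjusted p = 7.96e-12) with TMM factors and by 2.29 with totals alone. Rps4l followed at 1.36 ± 0.17 (adjusted p = 1.21e-06) and 2.09. Lower in EOM were Rps27l (-1.37 ± 0.09, adjusted p = 5.87e-10, and -0.64 with totals alone), Rpl36al (-1.36 ± 0.08, adjusted p = 6.39e-11, and -0.63) and Rpl3l (-1.19 ± 0.07, adjusted p = 1.62e-10, and -0.45).

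Rpl36al, the retrotransposed copy of Rpl36a, was at 45.5, 45.8, 43.8 and 46.2 CPM in EOM and 71.8, 72.2, 64.8 and 70.8 CPM in TA. Its parent Rpl36a had the reverse order, at 107, 99.5, 107 and 103 CPM in EOM and 67.5, 76.7, 77.8 and 68.2 CPM in TA. Neither gene's ranges overlapped between the muscles. Rpl36al made up 14.2% ± 0.635 (SD, n = 4) of the sum of both per transcript length in EOM and 26.8% ± 2.16 (SD, n = 4) in TA. In CN3 and CN6 it made up 15.3% ± 1.45 and 16.4% ± 0.609 (SD, n = 4 each). The coding sequences of this pair are close copies, so the split depends on how the authors' counting treated shared reads.

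**Figure D3:**
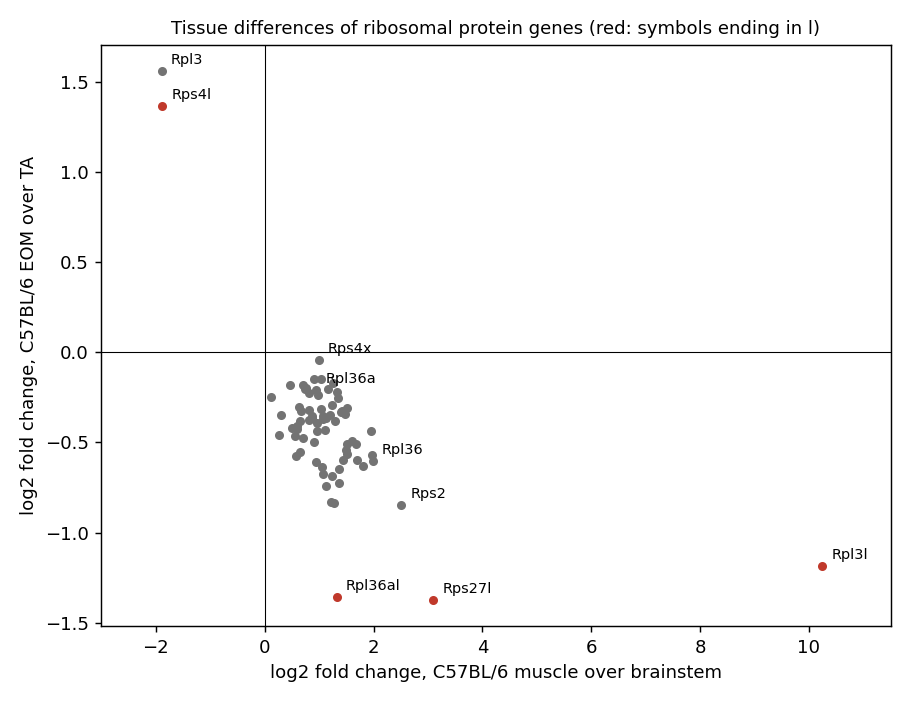
Log2 difference of each member with a mean of at least 1 CPM between C57BL/6 muscle and brainstem (x axis) and between C57BL/6 EOM and TA (y axis), both with TMM factors, 1 point per gene and red for symbols ending in l. The EOM and TA libraries enter both axes. Rpl3 and Rps4l stand apart at the upper left, and Rpl3l, Rps27l and Rpl36al at the bottom; the sign of most others on the y axis turns when deposited totals are used (55 higher and 3 lower).

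Members with roles of their own were spread around the family's median between EOM and TA. With TMM factors Rpl5 and Rpl11, which join the 5S RNA and can bind Mdm2, differed by -0.34 ± 0.06 and -0.18 ± 0.06 on the log2 scale (adjusted p = 2.66e-05 and 0.0113). Rps6, the substrate of S6 kinase, differed by -0.18 ± 0.06 (adjusted p = 0.0149). Rpl24 and Rpl4 fell further, by 0.84 ± 0.06 and 0.83 ± 0.05 (adjusted p = 1.05e-09 and 2.84e-10). With totals alone the signs of Rpl5, Rpl11 and Rps6 turned, to 0.39, 0.55 and 0.55. Of the other lists, Eef1a1, the widely used elongation factor, was higher in EOM at 2006 against 278 CPM. Mitochondrial ribosomal proteins were called higher in 2 and lower in 71 of 77 with TMM factors, initiation factors in 0 and 24 of 28, and biogenesis genes in 1 and 27 of 33, against the 41.3% and 32.8% of all genes. These directions turned with the scaling too. With totals alone 32 mitochondrial ribosomal proteins were higher and 10 lower, 13 and 6 initiation factors, and 16 and 7 biogenesis genes. Of all genes 70.9% were then higher and 9.41% lower. The medians of these lists were then 0.11, 0.09 and 0.15, against 0.89 for all genes. With TMM factors they were -0.62, -0.64 and -0.58, against 0.16, so they lay below all genes under both scalings.

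Markers of several cell types also differed between the muscles of C57BL/6. Fast-fibre genes (10 of 11 lower in EOM) summed to 73393 to 82151 CPM in EOM and 181849 to 190120 CPM in TA. Fibroblast genes (7 of 7 higher in EOM) summed to 5075 to 5735 CPM in EOM and 446 to 641 CPM in TA, and leukocyte genes (7 of 7 higher) to 571 to 722 and 48.1 to 57.2 CPM. Glial genes (5 of 5 higher) summed to 385 to 410 and 75.5 to 89.2 CPM, endothelial genes (5 of 5 higher) to 336 to 395 and 207 to 245 CPM, and neuron genes (10 of 10 higher) to 53.7 to 152 and 7.79 to 8.84 CPM. Their part in these differences was not tested.

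Between CN3 and CN6 of C57BL/6, 14 of 74 tested members were higher in CN3 and 1 lower, against 9.49% and 12.0% of all genes. Rpl17 (log2 difference 0.47 ± 0.14, adjusted p = 0.0271), a protein at the exit of the peptide tunnel, and Rpl21 (0.33 ± 0.07, adjusted p = 0.00324), also of the large subunit, differed most. Rpl21 was at 55.4, 65.9, 64.0 and 66.2 CPM in CN3 and 47.5, 50.8, 49.2 and 47.5 CPM in CN6, with no overlap. Rpl17 was at 65.3, 104, 124 and 98.5 CPM in CN3 and 61.3, 71.3, 82.4 and 60.8 CPM in CN6, and these ranges overlapped. Rps21 and Rps15, both of the small subunit, were 0.30 ± 0.09 and 0.26 ± 0.07 higher (adjusted p = 0.0184 and 0.0216).

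The exception was Rpl22, which was lower in CN3 by 0.26 ± 0.05 on the log2 scale (adjusted p = 0.00262). Rpl22, a protein of the large subunit that also binds RNA outside the ribosome, had 86.6, 99.5, 92.6 and 100 CPM in CN3 and 110, 115, 108 and 108 CPM in CN6, without overlap. The count of 15 called members was 28 without C57BL/6 CN3 1, 6 without CN3 3, 9 without CN3 4, 7 without CN6 2 and 8 without CN6 4. Calls over all genes were, in the same order, 3326, 2655, 2688, 3019 and 2524, against 3590 with every library. With totals alone 26 members were higher and 1 lower, where 12% of all genes were higher and 10.2% lower. The cholinergic markers (6 of 6 lower in CN3) summed to 4.21 to 7.34 CPM in CN3 and 82.4 to 172 CPM in CN6, and glial markers (5 of 5 lower) to 8285 to 14093 and 11434 to 13670 CPM. Their part in these differences was not tested.

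In extraocular muscle most ribosomal protein messengers were called higher in albino mice, but few were once GC content and transcript length entered the fit. Of 75 tested members, 62 were higher and 0 lower, where 14.5% and 17.6% of all 15397 genes were called higher and lower. The median log2 difference was 0.49 for the members and 0.01 for all genes. With offsets for GC content and length, 8 members were higher and 0 lower, against 2.71% and 3.33% of all genes, and the medians were 0.11 for the members and -0.01 for all genes. In CPM, 65 members had both albino libraries above all 4 of C57BL/6, as did 24.5% of all genes, and 0 had both below (26.9% of all genes). Of the large subunit 35 of 44 tested members were called, and of the small subunit 27 of 31.

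Rpl41, which encodes the shortest ribosomal protein, differed most: 131, 153, 169 and 138 CPM in C57BL/6 and 350 and 249 CPM in albino EOM. The groups did not overlap, and the log2 difference was 1.03 ± 0.12 (SE, adjusted p = 0.00105); with the offsets it was 0.41 (adjusted p = 0.0944). Rpl36 rose from 89.1, 76.0, 65.2 and 79.6 CPM to 161 and 134 CPM (0.94 ± 0.13, adjusted p = 0.00146), a difference of 0.18 with the offsets (adjusted p = 0.532). Rps2 rose from 281, 167, 209 and 222 CPM to 405 and 405 CPM (0.90 ± 0.17, adjusted p = 0.00529), again without overlap. Rps21 was 0.80 ± 0.13 higher (adjusted p = 0.00285).

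Rpl3 was an exception. It had 217 and 155 CPM in albino EOM, on both sides of the C57BL/6 values (195, 175, 187 and 185 CPM), and its log2 difference was 0.01 ± 0.11 (adjusted p = 0.948). Rpl3l had 568 and 543 CPM in albino EOM, above all C57BL/6 values (436, 440, 408 and 423 CPM), and was 0.39 ± 0.07 higher (adjusted p = 0.00458), against -0.060 with the offsets (adjusted p = 0.795). Rpl10, a protein that joins the large subunit late in its assembly, also did not pass, with 285 and 243 CPM against 271, 256, 232 and 248 CPM (0.08 ± 0.09, adjusted p = 0.556). The other tested members at a mean of at least 1 CPM that did not pass were Rpl4, Rpl7, Rpl15, Rpl22, Rpl23a, Rps4l, Rps4x and Rps6, with log2 differences of 0.14 to 0.35.

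Members with known roles were spread over the range. Rps19, the first gene linked to Diamond-Blackfan anaemia, was 0.67 ± 0.10 higher (adjusted p = 0.0018), and Rpl38, mutated in tail-short mice, 0.58 ± 0.09 (adjusted p = 0.0026). Rpl11 and Rpl5 differed by 0.55 ± 0.09 and 0.26 ± 0.08 (adjusted p = 0.00301 and 0.0287). Rps27a, made as a fusion with ubiquitin, rose by 0.54 ± 0.09 (adjusted p = 0.00376), and Rpl24, mutated in belly-spot-and-tail mice, by 0.41 ± 0.08 (adjusted p = 0.00586). Both Rpl36a (0.49 ± 0.10) and Rpl36al (0.43 ± 0.09) rose, and Rps27l rose by 0.36 ± 0.11 (adjusted p = 0.0301). These values are without the offsets for GC content and length. With them, Rpl24, Rpl38 and Rpl3l changed sign. Of the tested members picked by the naming rule, 13 lost their call, these 3 changed sign and 9 kept their result.

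The difference between strains in EOM rose with GC content over all genes, from a median of -0.40 in genes of up to 45.7% GC to 0.30 in those of 55.1% or more, and fell with transcript length, from 0.32 in genes of up to 1902 bases to -0.33 in those of 4481 bases or more. Of the 75 members, 68 have transcripts of up to 1902 bases. Their part in the calls was not tested beyond the offsets. Without albino EOM 3, which had the largest summed share, the median was 0.37 for the members and -0.05 for all genes.

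**Figure D4:**
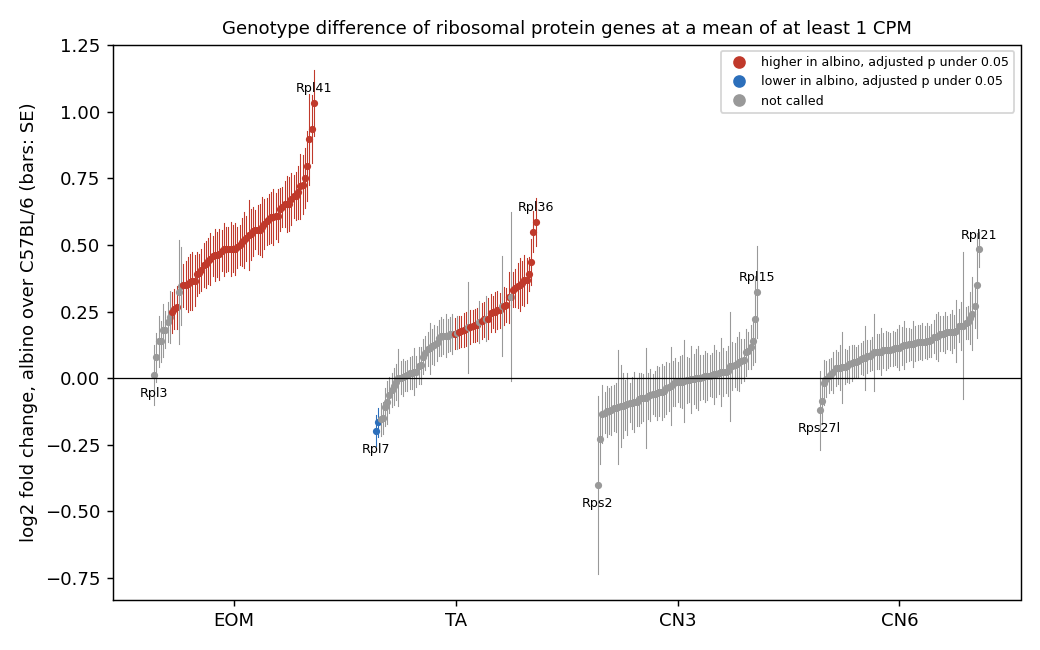
Log2 difference between albino and C57BL/6 (y axis) of each member with a mean of at least 1 CPM in 4 tissues (x axis), ordered by value within a tissue, with SE bars and red or blue for those called higher or lower. In EOM 62 members are called higher, in TA 31 are higher and 2 lower, and in CN3 and CN6 0 are called; with offsets for GC content and length, 8 are called higher in EOM, and 8 higher and 18 lower in TA.

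Messengers of the mitochondrial ribosome rose alongside in albino EOM, in 60 of 77 with 0 lower and a median of 0.44; with the offsets 13 were higher and 0 lower. Mrps16 stood at 78.9 against 48.5 CPM and Mrpl12 at 250 against 155 CPM. Of the 10 ribosomal proteins outside the symbol rule, 7 were higher and 0 lower, among them the stalk protein Rplp1 (512 against 280 CPM, 0.88 ± 0.11). Elongation factors were higher in 4 and lower in 1 of 8, led by Eef1b2 at 328 against 234 CPM. Biogenesis genes, which build ribosomes, were higher in 5 and lower in 6 of 33 (15.2% and 18.2%, near the shares of all genes), with nucleolin, Ncl, at 240 against 327 CPM, and initiation factors, which start translation, were higher in 5 and lower in 7 of 28 (17.9% and 25%), with Eif5b at 92.4 against 124 CPM. Of the growth-control genes 3 of 16 were lower (18.8%, near the 17.6% of all genes) and 0 higher. Those lower included the mTOR inhibitor Deptor (57.8 against 125 CPM) and the S6 kinase gene Rps6kb1 (30.5 against 52.2 CPM). With the offsets, 0 of 9 proteins outside the rule and 0 of 28 initiation factors were called. Elongation factors were then higher in 1 and lower in 0 of 8, and biogenesis genes higher in 2 and lower in 0 of 33. Growth-control genes were higher in 0 and lower in 2 of 16, where 2.71% and 3.33% of all genes were called higher and lower. Fibroblast markers summed to 3778 to 3884 CPM in albino and 5075 to 5735 CPM in C57BL/6 EOM (7 of 7 lower), leukocyte markers to 761 to 948 and 571 to 722 CPM (5 of 7 higher) and endothelial markers to 475 to 483 and 336 to 395 CPM (5 of 5 higher). Their part in the strain difference was not tested.

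In tibialis anterior Rpl36 and Rpl41 again led the members that were higher in albino mice. Of 74 tested members 31 were higher and 2 lower in albino TA, against 14.7% and 16.4% of all genes, and the median log2 difference was 0.17 for members and 0.0026 for all genes. In CPM, 46 members lay wholly above (27.0% of all genes) and 4 wholly below (22.5%).

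Rpl36 had 120 and 97.5 CPM in albino TA and 70.2, 71.9, 64.0 and 77.8 CPM in C57BL/6 TA, a log2 difference of 0.59 ± 0.09 (adjusted p = 0.000439). Rpl41 had 156 and 150 CPM against 94.7, 112, 103 and 99.8 CPM (0.55 ± 0.08, adjusted p = 0.000199). Neither gene overlapped between the strains. Rps10, a small-subunit protein that meets stalled ribosomes, and Rps29, a small zinc-binding protein, were 0.44 ± 0.09 and 0.39 ± 0.06 higher (adjusted p = 0.00227 and 0.000622).

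In TA Rpl3 was called and Rpl3l was not. Rpl3 had 53.0 and 45.6 CPM in albino TA against 41.9, 38.4, 31.7 and 39.7 CPM, without overlap, and was 0.35 ± 0.10 higher (adjusted p = 0.0174; 0.229 without albino TA 3). Rpl3l, with 596 and 608 CPM against 610, 599, 563 and 569 CPM, overlapped between strains (0.01 ± 0.06, adjusted p = 0.915). Lower in albino TA were Rpl7, by 0.20 ± 0.06 (adjusted p = 0.0208), and Rpl4, by 0.17 ± 0.06 (adjusted p = 0.0386), both large-subunit proteins. With upper-quartile scaling neither was called and 41 members were higher.

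With offsets for GC content and length, 8 members were higher and 18 lower in albino TA, against 9% and 17.7% of all genes, with a median of -0.07 for the members and -0.08 for all genes. Rpl36 and Rpl41 were then 0.28 and 0.24 higher (adjusted p = 0.0128 and 0.0224). The 33 calls made without offsets became 18 without C57BL/6 TA 1, where calls over all genes went from 4131 to 3790. Without albino TA 3 the members' median log2 difference was 0.09, against 0.17 with both albino libraries. Mitochondrial ribosomal proteins were higher in 19 and lower in 1 of 77 without the offsets, and higher in 8 and lower in 10 with them. The counts that follow are without them, where 14.7% of all genes were higher and 16.4% lower. Among the 10 ribosomal proteins outside the rule 5 were higher and 1 lower, with Fau at 109 against 73.0 CPM. Initiation factors were higher in 1 and lower in 14 of 28, biogenesis genes higher in 1 and lower in 10 of 33, and growth-control genes higher in 1 and lower in 6 of 15; Ncl stood at 182 against 257 CPM and Rps6kb1 at 40.4 against 60.4 CPM. Leukocyte markers (7 of 7 higher in albino) summed to 181 to 231 CPM in albino and 48.1 to 57.2 CPM in C57BL/6 TA, fibroblast markers (7 of 7) to 1202 to 1239 and 446 to 641 CPM, endothelial markers (5 of 5) to 316 to 321 and 207 to 245 CPM. Rn45s took 1.77% and 0.843% of counts in albino TA and 0.203 to 0.483% in C57BL/6 TA. The part of these in the result was not tested.

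The test of the difference itself called 12 of 75 tested members as more raised in albino EOM than in albino TA and 0 as less raised (2.23% and 5.49% of all genes). Rpl23, a large-subunit protein, led with 0.54 ± 0.11 on the log2 scale (adjusted p = 0.00734). It went from 279 to 287 CPM in C57BL/6 EOM to 408 and 329 CPM in albino EOM, and from 196 to 202 CPM in C57BL/6 TA to 184 and 180 CPM in albino TA. Rpl36al (0.49 ± 0.12, adjusted p = 0.0221), Rpl13 (0.46 ± 0.13, adjusted p = 0.0434), Rpl24, Rpl3l and Rpl4 were among the others. Rpl3 did not pass (-0.34 ± 0.17, adjusted p = 0.253).

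This count rested on single libraries. It was 0 without albino EOM 3 or without albino TA 4, 2 without albino TA 3, 3 to 5 without C57BL/6 EOM 2 or any of the C57BL/6 TA libraries, and 22 without albino EOM 4.

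In the brainstem no member was called between strains. In CN3, 0 of 73 tested members passed (0.0804% of all genes did), 1 had an unadjusted p under 0.05, and the median log2 difference was -0.01. In CN6, 0 of 74 passed (0.0246% of all genes), 15 had an unadjusted p under 0.05, and the median was 0.12. DESeq2 called 0 members in CN3 and 1 in CN6, where it called 101 of 16171 and 106 of 16268 genes. Without albino CN6 2 the members' median log2 difference in CN6 was 0.11. In CPM 34 members of CN6 had both albino libraries above all 4 of C57BL/6, as did 8.56% of all genes, and 0 lay wholly below (8.14% of all genes).

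Rpl21 came nearest in CN6. It had 70.2 and 66.9 CPM in albino and 47.5, 50.8, 49.2 and 47.5 CPM in C57BL/6 CN6, without overlap, and a log2 difference of 0.48 ± 0.07 (adjusted p = 0.068). In CN3 the same gene was at 53.5 and 52.9 CPM in albino against 55.4 to 66.2 CPM, a difference of -0.23 ± 0.10 (adjusted p = 0.593). Rpl3, the main form in brainstem, was at 574 and 526 CPM in albino CN3 (0.06 ± 0.08, adjusted p = 0.845) and at 543 and 518 CPM in albino CN6 (0.16 ± 0.06, adjusted p = 0.487). Of the 77 mitochondrial ribosomal proteins, 0 were called in either nucleus. In albino CN3 the cholinergic markers summed to 53.0 and 102 CPM against 4.21 to 7.34 CPM in C57BL/6 (6 of 6 higher), and their part in the CN3 values was not tested. In albino CN6 fast-fibre markers summed to 168 and 236 CPM against 215 to 256 CPM (11 of 11 lower) and glial markers to 10484 and 12487 against 11434 to 13670 CPM (5 of 5 lower). Endothelial markers summed to 164 and 167 against 123 to 166 CPM (5 of 5 higher) and cholinergic markers to 160 and 169 against 82.4 to 172 CPM (5 of 6 higher). The summed ranges of these 4 lists overlapped between strains, and their part in the CN6 values was not tested.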

How the data were processed

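RNA from 2 strains and 4 tissues was sequenced. The authors deposited raw read counts per gene symbol; per the submitters' processing notes, Trimmomatic 0.33, FastQC, HISAT2 2.1.0, featureCounts and edgeR were used with build mm10, and counting options are not given in the sources used here. Genes were matched to GENCODE vM21 for position, length and GC content (95.5% of 24421, and all 78 members). CPM used library totals, and levels between genes were compared per kilobase of a representative transcript. Tests were edgeR 4.0.16 quasi-likelihood fits in R 4.3.3 on the counts, with TMM factors, filterByExpr and Benjamini-Hochberg adjustment over all genes tested, called under 0.05. Strain tests used matching libraries of that tissue, and tissue tests all C57BL/6 libraries in 1 fit. Each fit was run on simulated counts in which few genes changed, as a check of the code. Such counts do not show how the tests behave where most genes differ, as between muscle and brainstem.

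Alternatives were DESeq2 1.42.0, limma 3.58.1 voom, other scalings and filters, GC and length offsets, a replicate block, all libraries as labelled and leaving out each library. Scaling by deposited totals alone was chosen after seeing the data. The genes and lists were chosen with earlier results of these data known. Named members are paralogues with their partners, members with textbook roles, and per comparison the 4 called members with the largest change in each direction at a mean CPM of at least 1; from each other list, examples come from the 2 called genes with the smallest adjusted p. The tested members named as not called, and Rpl17 and Rpl21 in further comparisons, were chosen after their values were seen. Some genes that the rule names are not reported here. Where markers go against a label, no library was regrouped.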

Additional observations from a re-analysis of the deposited data

Results flagged for a closer look

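Muscle-like levels of Rpl3l appeared in 4 libraries that entered no comparison. The libraries labelled albino CN3 3 and 4 had 577 and 499 CPM, where C57BL/6 CN3 had 0.429 to 0.735 CPM, and those labelled albino CN6 3 and 4 had 657 and 543 CPM, where C57BL/6 CN6 had 0.552 to 0.931 CPM.

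The strain difference itself differed between EOM and TA, larger in EOM on the log2 scale by edgeR's test of the difference, for Rpl23 (0.54), Rpl36al (0.49), Rpl13 (0.46), Rpl24 (0.38), Rpl3l (0.38) and Rpl4 (0.34), with adjusted p from 0.00734 to 0.0434. Their calls were lost without albino EOM 3 or albino TA 4.

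In 5 of 135 groups of 4 C57BL/6 libraries tested, a single library lay far from the other 3; chance gives about 1 in 20. Rpl22 was at 214 CPM in EOM 4 (the others 205 to 207) and at 159 CPM in TA 2 (the others at 154). Rpl7 was at 450 CPM in EOM 1 (the others 421 to 424), Rpl36al at 29.6 CPM in CN3 1 (the others 37.1 to 37.6) and Rps10 at 64.1 CPM in CN6 1 (the others 60.5 to 60.6).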

How the results depend on the processing

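The 24 libraries leave 2 albino samples per tissue, which limits every strain comparison, and the cause of each change below was not tested. Counts of called members moved by over 1.5 times as follows. Offsets for GC content and length gave 8 in EOM between strains. With all libraries as labelled, 0 members were called between strains in EOM, in TA and for the difference between them. Calls over all genes were then 1 of 15227, 18 of 13193 and 33 of 16443. In this setting each albino group held libraries whose markers went against its label. In CN6 between strains 1 member was called with no filter, with DESeq2 and with all 4 tissues in 1 fit. Calls over all genes were 21, 106 and 12 in these settings. Scaling by deposited totals gave 27 between CN3 and CN6, where 12% of all genes were higher and 10.2% lower. The difference between EOM and TA gave 7 with DESeq2 size factors, 28 with upper quartile factors, 28 with DESeq2 and 22 with voom. Over all genes these settings called 1286, 1513, 1924 and 1368, against 1211 in the main fit.

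Leaving out each library gave 40 to 61 in EOM between strains (40 without albino EOM 3), 6 to 32 in TA (6 without albino TA 3, 18 without C57BL/6 TA 1), 0 to 0 in CN3 and 0 to 2 in CN6 (2 without albino CN6 2). It gave 60 to 67 between EOM and TA, 6 to 28 between CN3 and CN6 (28 without C57BL/6 CN3 1, 6 to 9 without C57BL/6 CN3 3 or 4 or CN6 2 or 4), 72 to 73 between muscle and brainstem, and 0 to 22 for the difference between the strain effects (0 without albino EOM 3 or TA 4, 2 to 5 without albino TA 3, C57BL/6 EOM 2 or any C57BL/6 TA library, 22 without albino EOM 4). A lone albino library was assumed to vary like the other group. Calls over all genes moved as well when a C57BL/6 library was left out. They were 855 to 1351 for the difference between the strain effects (1211 with every matching library) and 2524 to 3899 between CN3 and CN6 (3590). Between strains they were 3689 to 4811 in EOM (4934) and 3523 to 3849 in TA (4131).

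Deviations of same-numbered libraries correlated from -0.15 to 0.22. Differently numbered libraries, and tissues within albino mice, were not compared in this way. These values therefore cannot tell whether replicate numbers mark shared animals or batches. With the replicate number as a block, 42 members were called between strains in EOM, 13 in TA, 0 in CN3, 0 in CN6, 67 between EOM and TA, 11 between CN3 and CN6, 72 between muscle and brainstem, and 9 for the difference between EOM and TA. Over all genes the calls were, in the same order, 2641, 3456, 5, 0, 12170, 3262, 14773 and 1422.

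Single genes changed sign in log2 difference. With GC and length offsets, Rpl24 was at -0.0045, Rpl38 at -0.14 and Rpl3l at -0.060 between strains in EOM; Rpl11 at -0.10, Rpl24 at -0.18, Rpl3l at -0.31 and Rps19 at -0.080 in TA; and Rps6 at -0.14 between muscle and brainstem. With all libraries as labelled, Rpl24 was at -0.039, Rpl39 at -0.19, Rpl3l at -0.57, Rpl5 at -0.27, Rps27l at -0.43 and Rps3 at -0.042 in EOM, and Rpl11 at -0.16, Rpl36 at -0.22, Rps10 at -0.050, Rps19 at -0.15, Rps27l at -0.64, Rps29 at -0.19 and Rps3 at -0.28 in TA. With deposited totals, EOM against TA turned for Rpl10 (0.30), Rpl11 (0.55), Rpl13a (0.32), Rpl36a (0.52), Rpl38 (0.27), Rpl39 (0.48), Rpl41 (0.53), Rpl5 (0.39), Rps19 (0.51), Rps27a (0.18), Rps3 (0.42), Rps4x (0.69) and Rps6 (0.55), and muscle against brainstem for Rpl13a (-0.10), Rpl38 (-0.44), Rps27a (-0.043) and Rps6 (-0.23).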
